A study of Mus musculus with 9 samples.

Results

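The interferon response genes described here are 42 genes that cells switch on after type I interferons (the interferon alpha and beta family) or type II interferon (interferon gamma). They were listed by name with earlier results of these data known, so counts set against all genes below are description only. Their values were read from the expression table as they stand. All 42 are among the 18423 genes of the table, and 38 of them could be tested because 3 or more libraries reached an FPKM of 1. FPKM counts sequenced fragments relative to the length of the transcript and to the mapped reads of the library, so levels can be compared between genes. The members without a test, Gbp4, Gbp6, Iigp1 and Ifit2, are given by their levels only. By role the list holds 4 transcription factors, 10 GTPases, 16 antiviral effectors, 8 sensors and regulators, and 4 genes of antigen processing.

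Poly(A) RNA was sequenced from glands scraped off the mouse stomach corpus, the acid-secreting region, after EDTA had loosened them. There were 9 libraries, 3 for each of 3 genotypes. WT was wild type. Ctrl carried Atp4bCre and Rosa26NICD, and Arid1a_Het carried Atp4bCre, Rosa26NICD and Arid1aflox/+. NICD is the intracellular domain of the Notch receptor, its active form, and the product of Arid1a is part of the nucleosome remodelling machine known as BAF or SWI/SNF. Ctrl is therefore a control only for the Arid1a allele: both transgenes are in both groups that were set against WT. Atp4b encodes a subunit of the parietal cell proton pump, so Cre is driven from a gene of that cell type, while the glands hold every cell type of the corpus epithelium, with and without Cre. Glands of the mutants came from corpus with tumours and those of normal stomachs from the matching place. Age, sex and strain are not given in the sources used here, and nothing in the labels ties the 3 libraries of a genotype to different mice, so a p-value here reflects only how these libraries vary, in part perhaps for technical reasons.

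Interferons act through cell surface receptors and JAK kinases on STAT transcription factors. After type I interferon, a complex that holds STAT2 and IRF9 binds the interferon-stimulated response element (ISRE), and the gamma-activated site (GAS) is the element bound after interferon gamma. The induced genes include RNA-binding antiviral proteins, large GTPases that attack the vacuoles of intracellular microbes, and the immunoproteasome and peptide transporter that feed MHC class I. Many of these genes also have a basal level in epithelial cells that is set without infection.

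The 2 elements could be looked for in the promoters. RefSeq promoter windows on GRCm38.p6, from 250 bases before to 50 bases after the transcription start, were matched for 31 of the 42 members. The ISRE was searched as GAAA followed by any 2 bases and GAAA again, and the GAS as TTCNNNGAA, where N is any base, both on both strands. An ISRE match was found in 16 of the 31 members, or 51.6%, against 3.99% of all 27025 genes with a window. A GAS match was found in 9 of the 31, or 29.0%, against 9.55% of all genes. An ISRE match was present in 4 of 4 guanylate-binding protein genes and 3 of 3 immunity-related GTPase genes with a window, in 7 of 14 antiviral effectors, in 1 of 4 transcription factors, in 1 of 3 sensors and regulators and in 0 of 3 antigen processing genes. A match describes these letters and is not evidence of binding, and no match says only that the letters are not in the window. The stretches below were picked by hand from members with a match, so they do not show how common matches are. Of the 4 members that passed the main test described below, Irf1, Irgm1 and Gbp2b are shown and Parp14 had no window. Irf7, Irf9, Oasl1, Ifi44, Dtx3l, Trim25 and Tap1, also described below, had a window without a match of either element. So did Cmpk2, Oasl2, Psmb9 and Xaf1. The capitals mark the matches, ISRE except in Irf1 and Psmb8, which show a GAS, and in Igtp, whose first capitals are a GAS and the second an ISRE. All are 5′ to 3′ on the strand of the gene: Isg15 at chr4:156200860-156200911 (minus strand), Ifit1 at chr19:34640770-34640828 (plus), Gbp2 at chr3:142620589-142620628 (plus), Gbp2b at chr3:142594695-142594734 (plus), Irgm1 at chr11:48871421-48871465 (minus), Igtp at chr11:58199496-58199546 (plus), Irf1 at chr11:53769909-53769947 (plus) and Psmb8 at chr17:34198083-34198121 (plus).
Isg15: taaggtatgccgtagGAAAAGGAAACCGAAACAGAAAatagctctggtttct
Ifit1: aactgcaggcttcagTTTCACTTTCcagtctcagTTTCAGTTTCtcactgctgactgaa
Gbp2: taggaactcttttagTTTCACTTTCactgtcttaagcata
Gbp2b: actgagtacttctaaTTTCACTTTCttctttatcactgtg
Irgm1: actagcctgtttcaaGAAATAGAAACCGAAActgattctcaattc
Igtp: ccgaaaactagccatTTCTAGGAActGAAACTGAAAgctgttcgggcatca
Irf1: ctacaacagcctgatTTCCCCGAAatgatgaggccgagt
Psmb8: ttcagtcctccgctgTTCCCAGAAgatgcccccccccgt
The starts used for these windows are those of RefSeq. By the GENCODE gene positions used elsewhere here, the Irgm1 and Psmb8 stretches lie inside the gene, and the Gbp2 stretch runs past the gene start. Isg15 holds 3 ISRE matches that overlap each other, Irgm1 holds 2 that overlap, and Ifit1 holds 2 apart from each other. Gbp2 and its neighbour Gbp2b hold the same match, TTTCACTTTC, which Ifit1 and Ifit3 hold as well.

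Across genotypes most of the 42 genes were higher in both mutant groups than in WT, and few of these differences passed the test. In Ctrl against WT, 3 of 38 tested members rose (Irf1, Irgm1 and Parp14) and 1 fell (Gbp2b), against 7.01% of all 11209 tested genes called higher and 3.04% called lower. In Arid1a_Het against Ctrl no member was called, where 0% of all tested genes were called higher and 0.00892%, a single gene, lower. In Arid1a_Het against WT no member was called by limma, against 2.06% of tested genes called higher and 0.687% lower, while 27 of 38 had an unadjusted p under 0.05, all of them higher, against 9.81% of tested genes higher and 7.38% lower. The groups of that comparison did not overlap for 23 of 38 members, all higher, against 10.6% of tested genes higher and 8.57% lower. A call is an adjusted p under 0.05 in limma on log2(FPKM + 1), two-sided, with Benjamini-Hochberg adjustment over all tested genes, and fold changes are on that log2 scale, on which low genes show less than their full change. The 3 comparisons share groups, so their values are given side by side and are not independent of each other.

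The size of the differences is read against that of all genes. In Ctrl against WT the mean was higher for 41 of 42 members, and the median log2 fold change was 0.69 over the 42 and 0.72 over the 38 tested, against 0.24 over all tested genes, of which 71.3% were above 0. With libraries scaled by their median ratio the medians were 0.49 for the members and 0.01 for all genes, so the gap of 0.48 between them was the same under both scalings. That scaling moved the share of higher genes among all calls from 69.7% to 50.9%. In Arid1a_Het against WT the mean was higher for 42 of 42 members, with a median of 1.030 over the 38 tested, against 0.02 for all tested genes, of which 53.4% were above 0. In Arid1a_Het against Ctrl the median was 0.39 against -0.16 for all tested genes. It was -0.03 without Ctrl 1, against -0.15 for all tested genes, and -0.04 without Arid1a_Het 2, against -0.09. The sign of the member median thus rests on these libraries, and its gap to all genes shrank from 0.55 to 0.12 and 0.05.

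**Figure D1:**
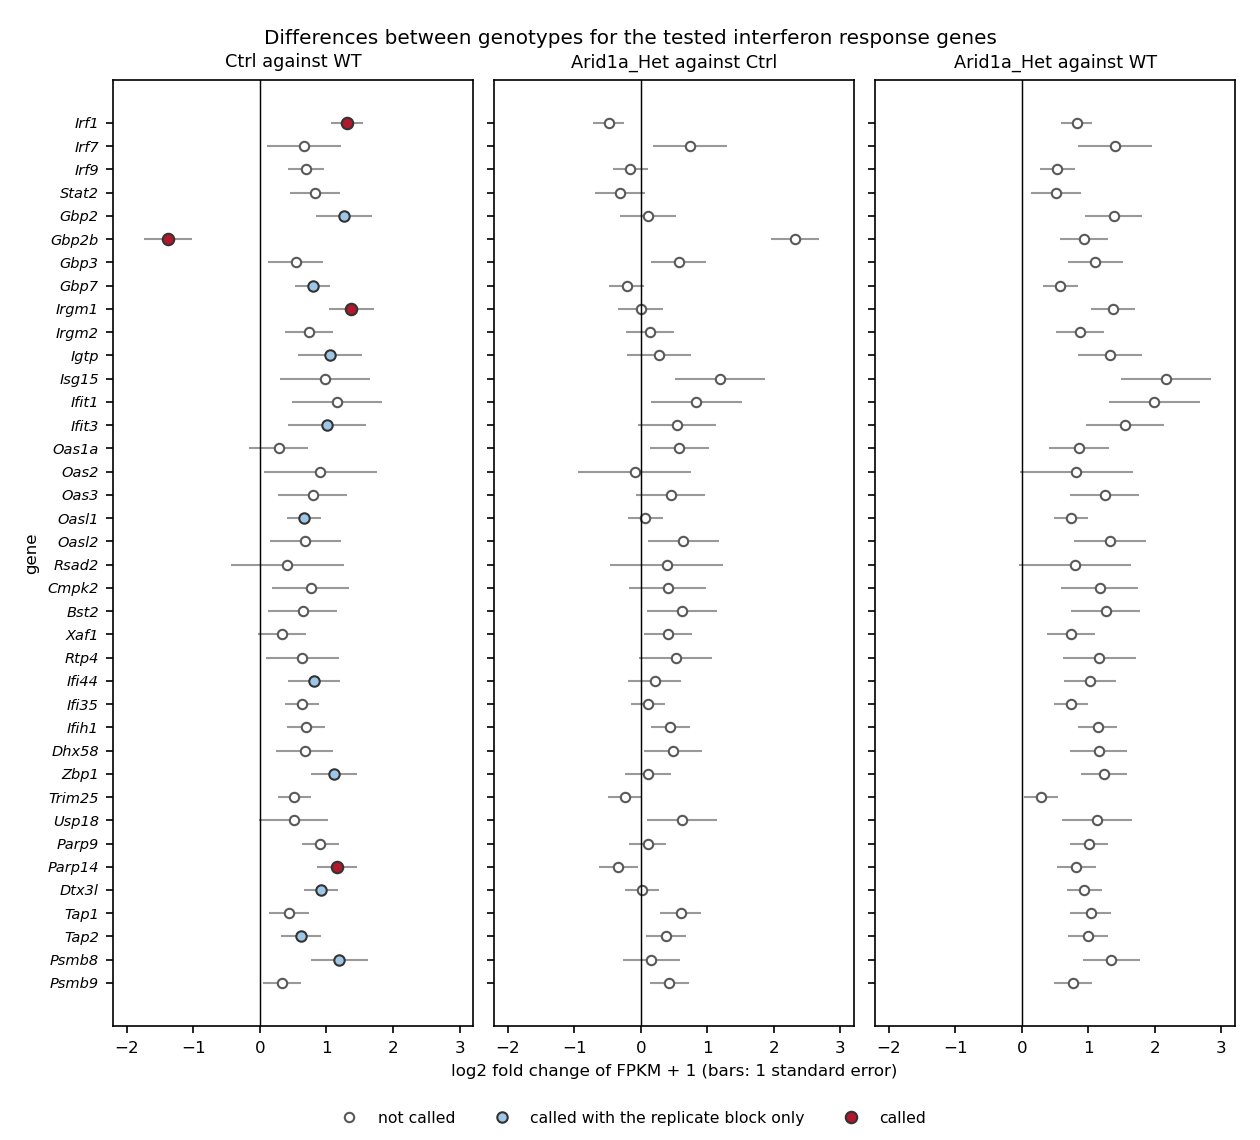
Log2 fold change of FPKM + 1 (x axis) for the 38 tested interferon response genes (y axis) in the 3 comparisons, with bars of 1 standard error; dark red points were called and light blue points, shown only for Ctrl against WT, were called only with the replicate number as a block. Nearly all points lie right of 0 against WT, with Gbp2b the exception in Ctrl, and no point is called in Arid1a_Het against Ctrl or against WT.

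Libraries of WT and Ctrl that carry the same replicate number deviated from their group means together, so for this comparison a fit with the number as a block is given as well. The labels do not give this pairing. It was taken from these same data, so the calls that the block adds depend on it. That fit holds all 9 libraries, so Arid1a_Het, whose numbers were not taken as a pairing with either group, enters its spread and its block terms. It called 13 members higher and 1 lower in Ctrl, where the same fit called 16.1% of all tested genes higher and 5.97% lower. The members called higher with the block were Irf1, Gbp2, Gbp7, Irgm1, Igtp, Ifit3, Oasl1, Ifi44, Zbp1, Parp14, Dtx3l, Tap2 and Psmb8, which come from all 5 role classes. With only the WT and Ctrl libraries in the blocked fit, which leaves 2 residual degrees of freedom a gene before limma's moderation, all 14 of these calls were made again and 6 more members passed (Irf9, Stat2, Isg15, Ifit1, Oas3 and Parp9). That makes 19 higher and 1 lower, against 17% and 6.23% of all tested genes. Without the block, 13 members had an unadjusted p under 0.05 with a higher mean and 1 with a lower mean, against 23.7% and 8.44% of tested genes. The groups did not overlap for 9 members higher and 1 lower in Ctrl, against 33.5% and 10.2% of tested genes.

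Among the transcription factors, Irf1, an early interferon target that activates many genes of this list, stood at 6.41, 4.08 and 7.86 FPKM in the 3 WT libraries, at 13.8, 18.0 and 17.2 in Ctrl and at 9.52, 10.5 and 14.4 in Arid1a_Het. Every Ctrl library was above every WT library, and the Arid1a_Het libraries lay between, the highest of them above the lowest of Ctrl. Irf1 rose in Ctrl by 1.31 (SE 0.23, limma adjusted p = 0.0129), from a mean of 6.12 ± 1.91 to 16.3 ± 2.22 FPKM (SD, n = 3). The call was lost without Ctrl 2 (adjusted p = 0.0502) or without Ctrl 3 (adjusted p = 0.0600). In Arid1a_Het the difference from Ctrl was -0.48 (SE 0.23, limma adjusted p = 0.443) and that from WT 0.83 (SE 0.23, limma adjusted p = 0.102).

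Irf7 and Irf9 were less regular. Irf7, the factor that amplifies type I interferon production and is itself strongly interferon-induced, had the highest mean of the 4 factors. Its libraries stood at 5.90, 12.7 and 21.1 FPKM in WT, at 9.24, 34.9 and 21.5 in Ctrl and at 32.6, 55.0 and 19.6 in Arid1a_Het. The groups overlapped in every comparison, with differences of 0.66 (SE 0.56, limma adjusted p = 0.402) in Ctrl against WT and 1.40 (SE 0.56, limma adjusted p = 0.232) in Arid1a_Het against WT. Irf9, the DNA-binding partner of STAT2, stood at 3.73, 3.55 and 6.92 FPKM in WT, at 5.69, 9.24 and 9.51 in Ctrl and at 7.34, 8.20 and 5.75 in Arid1a_Het. WT 3 overlapped the mutant libraries, and Irf9 was not called in Ctrl (0.69, SE 0.27, limma adjusted p = 0.114). Stat2 was not called in any comparison, with limma adjusted p of 0.159, 0.715 and 0.555.

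The GTPases fall into the guanylate-binding proteins (Gbp genes) and the smaller immunity-related GTPases (Irgm1, Irgm2, Igtp and Iigp1), which both act on vacuoles that hold microbes. Of the 7 tested, 1 rose (Irgm1) and 1 fell (Gbp2b) in Ctrl against WT, and with the block 4 rose and 1 fell. The shares of all tested genes were 7.01% higher and 3.04% lower, and with the block 16.1% and 5.97%. Irgm1, a regulatory member of its family, stood at 1.78, 1.71 and 3.73 FPKM in WT, at 4.58, 10.6 and 8.62 in Ctrl and at 6.25, 10.7 and 6.29 in Arid1a_Het. Both mutant groups lay above WT in every library and overlapped each other. The rise in Ctrl was 1.38 (SE 0.33, limma adjusted p = 0.0334) and the difference in Arid1a_Het against WT 1.37 (SE 0.33, limma adjusted p = 0.0656), while the 95% interval of the difference between Arid1a_Het and Ctrl ran from -0.75 to 0.75. The call in Ctrl was lost without a filter (adjusted p = 0.0704), with median-ratio scaling (0.0656), and without WT 1 (0.0707), WT 2 (0.109), Ctrl 2 (0.0994) or Ctrl 3 (0.123).

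Igtp, also a regulatory GTPase of that family, had the highest mean level of the 10. It stood at 2.94, 5.99 and 8.35 FPKM in WT, at 5.47, 18.9 and 16.7 in Ctrl and at 11.9, 24.0 and 11.6 in Arid1a_Het. Ctrl 1 lay inside the range of WT, and the difference of 1.05 (SE 0.48) had a limma adjusted p of 0.164, or 0.0430 with the block. Igtp and Irgm2 overlap on the same strand of chromosome 11, so the division of reads between them is uncertain. Irgm2 was not called in any comparison.

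Gbp2b went the other way from its neighbours. Gbp2b (chr3:142594847-142619179, GRCm38) lies in a cluster of guanylate-binding protein genes next to Gbp2 (chr3:142620602-142638008), and Gbp3 and Gbp7 are on its other side. It stood at 0.900, 2.85 and 3.55 FPKM in WT, at 0.266, 0.384 and 0.0786 in Ctrl and at 3.19, 7.85 and 5.31 in Arid1a_Het. The Ctrl values correspond to 17, 32 and 6 reads, against 59 to 233 in WT and 258 to 627 in Arid1a_Het. All 3 Ctrl libraries were the lowest of the 9, and the other groups overlapped through WT 3 and Arid1a_Het 1. Gbp2b fell by 1.38 in Ctrl against WT (SE 0.36, limma adjusted p = 0.0425), a ratio of means of 0.0997. The call was lost without a filter (adjusted p = 0.0833), with median-ratio scaling (0.0533), with voom on whole reads (0.0535), without Ctrl 1 and Arid1a_Het 3 (0.118), and without WT 2 (0.131), WT 3 (0.104), Ctrl 1 (0.105), Ctrl 2 (0.0843) or Ctrl 3 (0.145).

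In Arid1a_Het against Ctrl, Gbp2b had the lowest p of the 38 members. The difference was 2.32 (SE 0.36, 95% interval 1.51 to 3.13), a ratio of means of 22.4, with a limma adjusted p of 0.187 and a range of 0.0578 to 0.627 over the alternatives, so it was not called. Gbp2b was also the only member whose Arid1a_Het and Ctrl libraries did not overlap, where 2.41% of tested genes did not overlap in that direction and 22.2% in the other, and the only member with an unadjusted p under 0.05, against 1.15% of tested genes higher and 10.5% lower. An exact two-sided permutation test of its 3 against 3 libraries gave p = 0.1, the smallest this design can give. Any gene whose groups do not overlap reaches that value, so it adds nothing to the lack of overlap. Against WT, Arid1a_Het differed by 0.94 (SE 0.36, limma adjusted p = 0.216).

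Gbp2, the neighbour of Gbp2b, stood at 1.83, 4.83 and 3.15 FPKM in WT, at 4.58, 11.7 and 12.5 in Ctrl and at 5.74, 14.2 and 10.7 in Arid1a_Het. Arid1a_Het lay above WT in all 3 libraries, and Ctrl 1 fell inside the WT range. The difference in Ctrl was 1.27 (SE 0.42, limma adjusted p = 0.0841, 0.00405 with the block). Gbp7 stood at 0.890, 1.13 and 1.86 FPKM in WT, at 1.95, 3.95 and 3.10 in Ctrl and at 2.21, 3.45 and 1.70 in Arid1a_Het. Ctrl was above WT in every library, by 0.79 (SE 0.27, limma adjusted p = 0.0867, 0.0486 with the block). Gbp3 was not called in any comparison. Guanylate-binding protein genes are similar in sequence, and how reads with several matches were counted is not given in the sources used here, so the split between neighbours is uncertain. Gbp4 and Gbp6 stayed at or below 0.224 FPKM in every library, and Iigp1 at or below 1.35 FPKM.

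**Figure D2:**
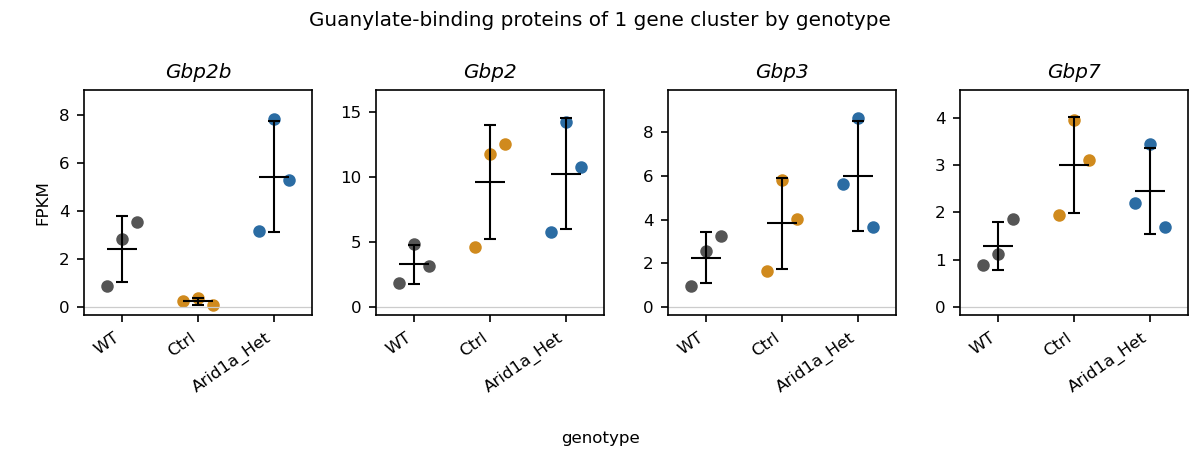
FPKM (y axis, each panel with its own scale) of the 4 clustered guanylate-binding protein genes by genotype (x axis); points are libraries, horizontal lines group means and bars 1 SD over 3 libraries. Gbp2b is near 0 in all 3 Ctrl libraries, at 0.0786 to 0.384 FPKM, while Gbp2, Gbp3 and Gbp7 have higher means in Ctrl than in WT.

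The antiviral effectors are proteins that bind viral RNA, make second messengers that start its decay, or block assembly and release. Of the 15 tested, none was called in Ctrl against WT, 2 had an unadjusted p under 0.05, and 3 passed with the block (Ifit3, Oasl1 and Ifi44). Of all tested genes 7.01% were called higher, 23.7% had such a p and a higher mean, and 16.1% rose with the block. Isg15, a ubiquitin-like protein that is joined to other proteins, stood at 10.0, 28.4 and 32.1 FPKM in WT, at 17.3, 88.4 and 48.9 in Ctrl and at 75.6, 219.8 and 56.5 in Arid1a_Het. All Arid1a_Het libraries were above all WT libraries, and Ctrl spanned the range between, with Ctrl 1 inside WT. Arid1a_Het differed from WT by 2.17 (SE 0.68, limma adjusted p = 0.133) and from Ctrl by 1.19 (SE 0.68, limma adjusted p = 0.506). The difference from WT was the largest of the 38 members.

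Ifit1 and Ifit3 encode RNA-binding proteins with tetratricopeptide repeats. Ifit1 stood at 2.45, 7.44 and 10.7 FPKM in WT, at 5.75, 28.9 and 17.8 in Ctrl and at 16.3, 63.6 and 18.1 in Arid1a_Het. Ifit3 stood at 0.839, 2.90 and 1.75 FPKM in WT, at 1.77, 8.82 and 4.88 in Ctrl and at 3.76, 17.5 and 4.61 in Arid1a_Het. For both genes the second library of each mutant group was the highest of its group, and Arid1a_Het lay wholly above WT. Against WT, Arid1a_Het differed by 1.99 for Ifit1 (SE 0.68, limma adjusted p = 0.168) and by 1.55 for Ifit3 (SE 0.59, limma adjusted p = 0.211). In Ctrl against WT, Ifit3 differed by 1.01 (SE 0.59, limma adjusted p = 0.247, 0.0294 with the block). Ifit1 and Ifit3 have close copies in the mouse genome, so their levels are uncertain in the same way as those of the guanylate-binding proteins.

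Oasl1, a relative of the oligoadenylate synthetases, had the highest mean level of all 42 members. It stood at 52.4, 59.2 and 72.3 FPKM in WT, at 73.5, 97.3 and 127 in Ctrl and at 72.4, 116 and 125 in Arid1a_Het. Both mutant groups lay above WT in every library, by 0.67 in Ctrl (SE 0.26, limma adjusted p = 0.119, 0.0167 with the block) and by 0.74 in Arid1a_Het (SE 0.26, limma adjusted p = 0.181). Ifi35 stood at 12.8, 13.4 and 19.0 FPKM in WT, at 19.4, 30.2 and 22.0 in Ctrl and at 24.0, 35.4 and 19.2 in Arid1a_Het, again with no overlap with WT. It differed from WT by 0.63 in Ctrl (SE 0.26, limma adjusted p = 0.131). Ifi44 stood at 0.211, 0.769 and 1.26 FPKM in WT, at 0.684, 3.25 and 2.69 in Ctrl and at 1.61, 4.06 and 2.08 in Arid1a_Het, and Ctrl 1 was below WT 2 and WT 3. Its difference in Ctrl was 0.82 (SE 0.40, limma adjusted p = 0.183, 0.0480 with the block). The other 9 tested effectors, Oas1a, Oas2, Oas3, Oasl2, Rsad2, Cmpk2, Bst2, Xaf1 and Rtp4, were not called in any comparison. Of these, Rsad2 (viperin) spanned 2.31 to 9.66 FPKM in WT, 2.70 to 14.2 in Ctrl and 2.35 to 35.7 in Arid1a_Het. Ifit2, which was not tested, stayed at or below 1.69 FPKM.

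The sensors and regulators detect foreign nucleic acid or tune the response. Of the 8, 1 rose in Ctrl against WT (Parp14), 5 had an unadjusted p under 0.05, all higher, and 3 passed with the block (Zbp1, Parp14 and Dtx3l). The shares of all tested genes that were higher by these rules were 7.01%, 23.7% and 16.1%. Parp14, a mono-ADP-ribosyltransferase, stood at 2.48, 1.75 and 4.46 FPKM in WT, at 5.19, 9.26 and 8.13 in Ctrl and at 6.39, 6.64 and 4.08 in Arid1a_Het. Ctrl was above WT in every library, and Arid1a_Het 3 lay inside the WT range. Parp14 rose in Ctrl by 1.16 (SE 0.30, limma adjusted p = 0.0407), and the difference between Arid1a_Het and Ctrl was -0.34 (95% interval -1.01 to 0.33). The call was lost without a filter (adjusted p = 0.0790), with median-ratio scaling (0.0650), and without WT 1 (0.0766), WT 2 (0.123), Ctrl 1 (0.0540), Ctrl 2 (0.118), Ctrl 3 (0.138) or Arid1a_Het 1 (0.0562).

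Zbp1 senses Z-form nucleic acid and can start necroptosis. It stood at 0.476, 0.936 and 1.79 FPKM in WT, at 1.64, 4.63 and 4.52 in Ctrl and at 2.89, 5.07 and 3.35 in Arid1a_Het, with Ctrl 1 just below WT 3. The difference in Ctrl was 1.12 (SE 0.35, limma adjusted p = 0.0686, 0.0161 with the block and 0.0390 without Ctrl 1). Dtx3l, a ubiquitin ligase that works with Parp9, stood at 4.45, 3.23 and 6.63 FPKM in WT, at 6.85, 11.7 and 10.9 in Ctrl and at 9.87, 11.2 and 8.37 in Arid1a_Het. Neither mutant group overlapped WT, and the difference in Ctrl was 0.92 (SE 0.26, limma adjusted p = 0.0534, 0.0401 with the block). Dtx3l and Parp9 overlap on opposite strands. The kit marks strand, but whether the counting used it is not given in the sources used here.

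Ifih1 encodes MDA5, a cytosolic sensor of long double-stranded RNA. It stood at 4.51, 3.42 and 6.48 FPKM in WT, at 5.53, 10.8 and 9.09 in Ctrl and at 13.1, 13.9 and 8.29 in Arid1a_Het. All Arid1a_Het libraries exceeded all WT libraries, by 1.14 (SE 0.29, limma adjusted p = 0.0753), and the difference between Arid1a_Het and Ctrl was 0.44 (SE 0.29, limma adjusted p = 0.544). Trim25, the ubiquitin ligase that acts on RIG-I, was the most abundant of the class. It stood at 39.1, 20.7 and 39.1 FPKM in WT, at 39.4, 45.5 and 53.5 in Ctrl and at 46.5, 37.0 and 33.8 in Arid1a_Het, with a difference of 0.52 in Ctrl against WT (SE 0.25, limma adjusted p = 0.183). Dhx58, Usp18 and Parp9 were not called in any comparison.

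The antigen processing genes encode the peptide transporter of MHC class I loading (Tap1 and Tap2) and subunits of the immunoproteasome (Psmb8 and Psmb9). None of the 4 was called in Ctrl against WT, and Tap2 and Psmb8 passed with the block. Of all tested genes 7.01% were called higher, and 16.1% with the block. Psmb8 stood at 1.57, 3.21 and 1.97 FPKM in WT, at 5.67, 8.78 and 4.84 in Ctrl and at 2.87, 12.4 and 9.15 in Arid1a_Het. Ctrl was above WT in every library, while Arid1a_Het 1 lay inside the WT range. The difference in Ctrl was 1.19 (SE 0.43, limma adjusted p = 0.101, 0.0258 with the block), and it passed also with only the 2 groups in the fit (0.0275) and without Arid1a_Het 1 (0.0338). In Arid1a_Het against WT the difference was 1.35 (SE 0.43, limma adjusted p = 0.138), and 0.0268 was the adjusted p without Arid1a_Het 1.

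Tap2 stood at 6.40, 10.7 and 7.83 FPKM in WT, at 10.6, 15.5 and 13.5 in Ctrl and at 10.9, 26.7 and 17.5 in Arid1a_Het. Tap1 stood at 3.76, 6.23 and 5.70 FPKM in WT, at 5.33, 9.32 and 7.75 in Ctrl and at 8.13, 18.4 and 10.2 in Arid1a_Het. For both transporter genes Arid1a_Het lay wholly above WT and the highest of the 9 libraries was Arid1a_Het 2. Against WT, Arid1a_Het differed by 0.999 for Tap2 (SE 0.30, limma adjusted p = 0.122) and by 1.04 for Tap1 (SE 0.31, limma adjusted p = 0.111). Against Ctrl, Arid1a_Het differed by 0.60 for Tap1 (95% interval -0.09 to 1.29, limma adjusted p = 0.458). Tap1 and Psmb9 lie on opposite strands and overlap, with the same reservation on strand as for Dtx3l.

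The typical difference was set side by side for the role classes. In Ctrl against WT the median log2 fold change of the tested members was 0.79 for the GTPases, 0.68 for the antiviral effectors, 0.53 for antigen processing, 0.76 for the transcription factors and 0.80 for the sensors and regulators. In Arid1a_Het against WT it was 1.11 for the GTPases, 1.16 for the antiviral effectors, 1.02 for antigen processing, 0.68 for the transcription factors and 1.07 for the sensors and regulators. In Arid1a_Het against Ctrl it was 0.14, 0.45 and 0.41 for the GTPases, antiviral effectors and antigen processing, and -0.24 and 0.10 for the transcription factors and the sensors. Over the libraries left out these medians ranged from -0.23 to 0.43 for the GTPases, from -0.015 to 0.91 for the antiviral effectors, from 0.12 to 0.69 for antigen processing, from -0.46 to -0.031 for the transcription factors and from -0.15 to 0.28 for the sensors. The means of 14 of 15 tested antiviral effectors and of 4 of 4 antigen processing genes were higher in Arid1a_Het than in Ctrl, with 5 of 7 tested GTPases, 6 of 8 sensors and 1 of 4 transcription factors, against 27.5% of all tested genes. Without Ctrl 1 this held for 7 of 15 antiviral effectors, 4 of 4 antigen processing genes and 2 of 7 GTPases, against 30.3% of all tested genes. Without Arid1a_Het 2 it held for 8 of 15, 3 of 4 and 2 of 7, against 35.3%. These are counts over members that share libraries, and no difference between classes was tested.

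Libraries of the same genotype differed widely in these genes. Taking for each library the median over the 42 members of the log2 difference from the WT mean, the levels were -0.34, -0.03 and 0.47 in WT, 0.05, 1.24 and 0.92 in Ctrl and 0.78, 1.59 and 0.61 in Arid1a_Het. Ctrl 1 was thus inside the range of WT, and every Arid1a_Het library was above it. Ctrl 1 was the lowest of its group for 36 of 42 members, where it was the lowest for 19.6% of all tested genes. Arid1a_Het 2 was the highest of its group for 35 of 42 members and the highest of all 9 libraries for 28, where it was the highest of its group for 16.2% and of all 9 for 2.59% of all tested genes. WT 1 was the lowest of its group for 30 of 42, where it was the lowest for 19.2% of all tested genes. Without Ctrl 1 the median difference of the tested members in Ctrl against WT was 1.13, and without Arid1a_Het 2 that in Arid1a_Het against WT was 0.76.

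**Figure D3:**
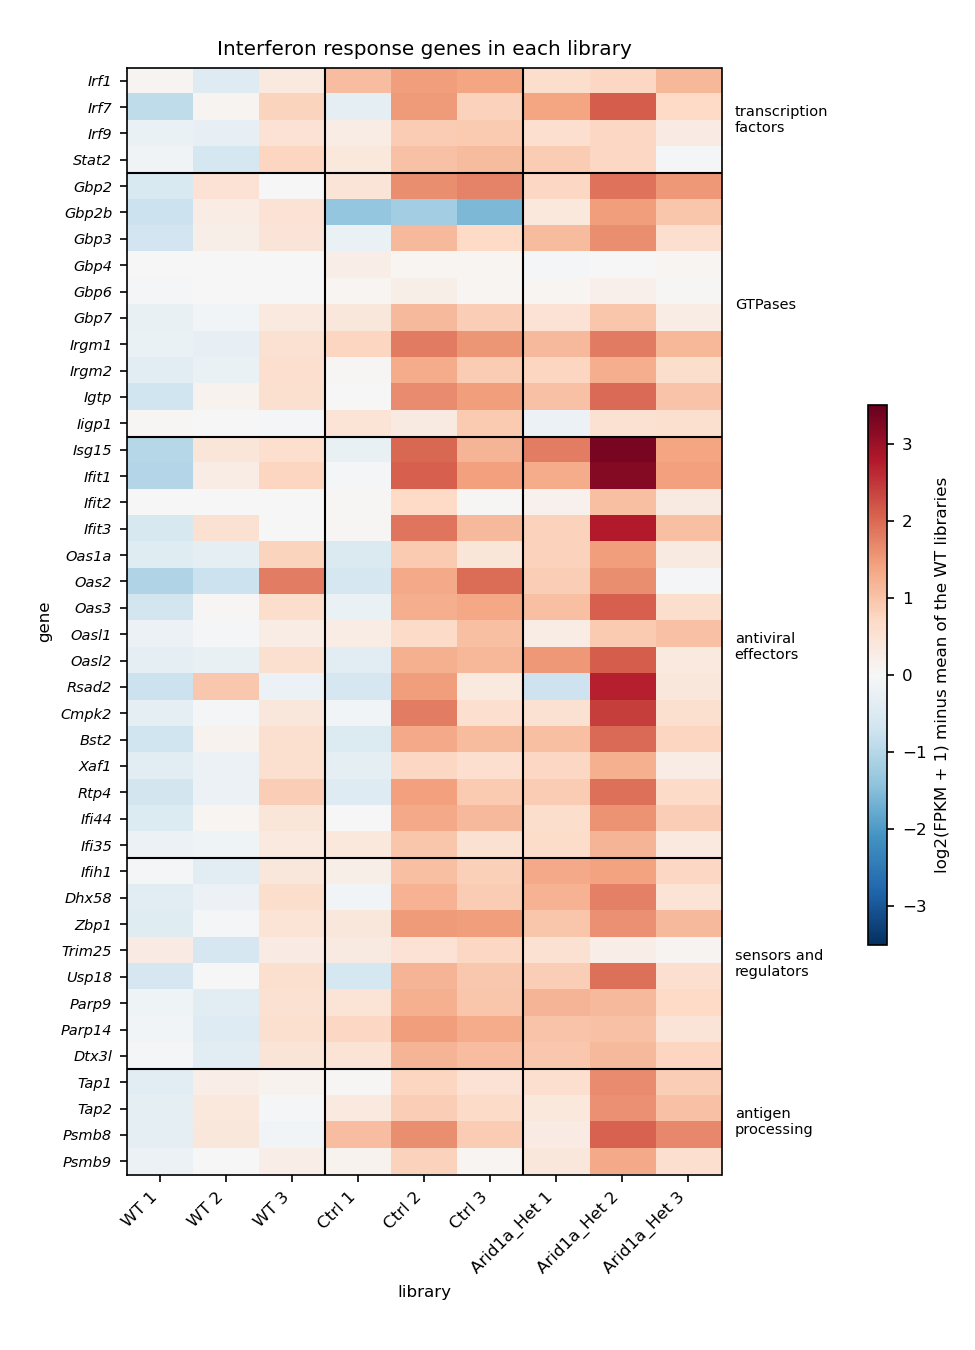
Log2(FPKM + 1) minus the mean of the WT libraries (colour, red above and blue below WT) for the 42 interferon response genes (rows, by role class) in the 9 libraries (columns). Ctrl 1 is close in colour to the WT columns, Arid1a_Het 2 is the darkest red for most genes, and Gbp2b is blue in all 3 Ctrl libraries.

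The pattern over libraries was not the same in every class. In the antiviral effectors the class level ran from -0.25 in Ctrl 1 to 1.33 in Ctrl 2 and reached 1.96 in Arid1a_Het 2. In the transcription factors Arid1a_Het 2 did not stand apart, at 0.73, beside 0.74 and 0.49 in the other two. The antigen processing genes were highest in Arid1a_Het 2, at 1.63, and Arid1a_Het 1, at 0.38, was below Ctrl 2 and Ctrl 3.

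**Figure D4:**
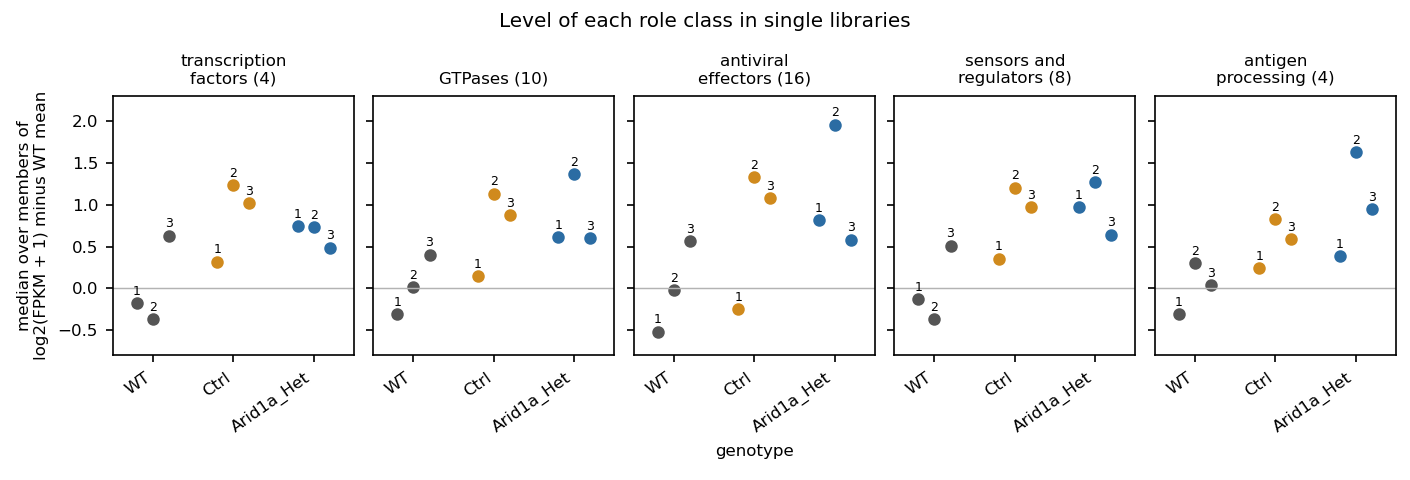
Median over the members of each role class of log2(FPKM + 1) minus the WT mean (y axis) for each library (points, with the replicate number) by genotype (x axis), with the number of members in brackets. Ctrl 1 lies below the other Ctrl libraries in all 5 classes, and Arid1a_Het 2 is highest in 4 of 5.

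Of the interferon ligand genes looked up, 4 are in the table and none reached the minimum for testing. Ifng was listed at 0 in 5 libraries and reached 0.0578 FPKM, Ifnk was at 0 in 7 and reached 0.0535, and Ifnz was at 0 in 8 and reached 0.0239. Ifne, the epithelial interferon epsilon, was above 0 in all 9 libraries and ranged from 0.172 to 1.34 FPKM. None of the 6 receptor genes was called in any comparison. With the block 1 passed in Ctrl against WT, Ifnar1, a chain of the type I interferon receptor named here after its values were seen (0.55, SE 0.20, limma adjusted p = 0.107, 0.0475 with the block), and none passed with only WT and Ctrl in the blocked fit. Ifngr2, a chain of the interferon gamma receptor and the receptor gene of lowest p, stood at 24.4, 20.4 and 28.2 FPKM in WT, at 31.9, 35.9 and 34.5 in Ctrl and at 37.4, 29.7 and 34.5 in Arid1a_Het. It was above WT in every mutant library, by 0.48 in Ctrl (SE 0.16, limma adjusted p = 0.0780). None of the 9 tested JAK kinases and further transcription factors was called. Among them Irf3, which starts interferon production, stood at 14.6, 10.4 and 17.6 FPKM in WT, at 20.2, 18.4 and 26.5 in Ctrl and at 16.3, 12.0 and 15.1 in Arid1a_Het, and its difference in Ctrl was 0.59 (SE 0.22, limma adjusted p = 0.107, 0.0267 with the block).

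Of 87 other genes of the pathway in the table, 71 were tested, and 11 rose and none fell in Ctrl against WT, against 7.01% of all tested genes called higher and 3.04% lower. With the block 21 rose and none fell, against 16.1% and 5.97%. The 11 include 3 of 7 inhibitors, the cytokine signalling suppressors Socs1 and Socs3 and the STAT phosphatase Ptpn2. Ptpn2 stood at 8.97, 6.24 and 11.1 FPKM in WT, at 17.8, 18.6 and 17.9 in Ctrl and at 12.7, 10.9 and 13.2 in Arid1a_Het, the Ctrl libraries close together and above all others. It rose in Ctrl by 0.999 (SE 0.19, limma adjusted p = 0.0160), Socs1 by 0.95 (SE 0.23, limma adjusted p = 0.0320) and Socs3 by 1.52 (SE 0.37, limma adjusted p = 0.0348). Aim2, a sensor of cytosolic DNA, was the 1 of 10 tested nucleic acid sensing genes called, and 5 passed with the block, the others being Ddx58, Mb21d1, Myd88 and Ikbke, named after their values were seen. Aim2 stood at 0.0861, 0.0651 and 2.64 FPKM in WT, at 10.8, 14.2 and 10.1 in Ctrl and at 6.72, 1.59 and 3.55 in Arid1a_Het, and rose in Ctrl by 2.96 (SE 0.51, limma adjusted p = 0.0113). WT 3 overlapped Arid1a_Het but not Ctrl.

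Among other antiviral genes 4 of 26 tested rose in Ctrl, and 6 with the block, where 7.01% and 16.1% of all tested genes did. Isg20, an exonuclease, stood at 6.71, 4.06 and 5.72 FPKM in WT, at 14.7, 23.3 and 22.8 in Ctrl and at 25.0, 17.7 and 21.5 in Arid1a_Het, so both mutant groups were wholly above WT and overlapped each other. Isg20 rose by 1.70 in Ctrl (SE 0.23, limma adjusted p = 0.00445) and by 1.79 in Arid1a_Het (SE 0.23, limma adjusted p = 0.00468). The membrane proteins Ifitm2 and Ifitm1, which hinder viral entry, rose in Ctrl by 2.42 (SE 0.45, limma adjusted p = 0.0152) and by 2.003 (SE 0.48, limma adjusted p = 0.0334), and Epsti1 rose by 1.18 (SE 0.26, limma adjusted p = 0.0240). Ifitm2 stood at 42.9, 21.9 and 31.5 FPKM in WT, at 169, 177 and 165 in Ctrl and at 182, 63.8 and 269 in Arid1a_Het, where Arid1a_Het 2, the highest library for most of the 42 genes, was the lowest mutant library.

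Of 13 other antigen processing genes 5 rose in Ctrl with the block and 3 without it, where 16.1% and 7.01% of all tested genes did. Without the block the immunoproteasome subunit Psmb10 rose by 1.04 (SE 0.20, limma adjusted p = 0.0155). The peptide-loading factor Tapbpl rose by 1.02 (SE 0.23, limma adjusted p = 0.0267) and the peptide-trimming enzyme Erap1 by 0.69 (SE 0.16, limma adjusted p = 0.0318). Psmb10 stood at 16.2, 15.6 and 18.1 FPKM in WT, at 33.5, 41.0 and 31.5 in Ctrl and at 27.5, 41.5 and 44.6 in Arid1a_Het. The WT libraries of Psmb10 were tightly grouped below all 6 mutant libraries. In Arid1a_Het against WT 4 of the 71 genes were called, against 2.06% of all tested genes higher, Isg20, Psmb10 (1.11, SE 0.20, limma adjusted p = 0.0211), Ifitm2 (2.20, SE 0.45, limma adjusted p = 0.0366) and Socs1 (1.028, SE 0.23, limma adjusted p = 0.0475), and in Arid1a_Het against Ctrl none was.

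Of the 11 calls in Ctrl against WT, those of Isg20 and Aim2 held under all 16 alternatives. The other 9 were all lost without Ctrl 2 (adjusted p 0.0505 to 0.0979), 8 without WT 2 (to 0.114), 7 without Ctrl 1 (to 0.102), 7 without Ctrl 3 (to 0.133), 6 without WT 3 (to 0.0858) and 4 without WT 1 (to 0.0713). Of the 11 calls, 5 were lost without a filter (to 0.0725), 5 without both Ctrl 1 and Arid1a_Het 3 (to 0.0818), 4 with median-ratio scaling (to 0.0785) and 1, Socs1, with voom (0.0521). In Arid1a_Het against WT the call of Isg20 held under all 16, Socs1 was lost whichever library was left out (adjusted p 0.0569 to 0.146), Ifitm2 for each library but Arid1a_Het 2 (0.0532 to 0.123) and Psmb10 without WT 1 (0.0556), WT 2 (0.0699), WT 3 (0.0640) or Arid1a_Het 3 (0.0718). These 3 calls were also lost without a filter (0.0511 to 0.0951), with only the 2 groups compared (0.0715 to 0.121) and without both Ctrl 1 and Arid1a_Het 3 (0.130 to 0.212). With voom Ifitm2 and Socs1 were lost (0.0591 to 0.0784), and with median-ratio scaling Socs1 (0.0759).

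Markers of cell types were read beside these results. In a mixed sample such as glands, fewer cells of a type and less RNA per cell cannot be told apart. The 6 epithelial markers were high in every library, with summed levels of 4879.5 to 7046 FPKM in WT, 8658 to 9359 in Ctrl and 7845 to 11233 in Arid1a_Het. The 7 parietal cell markers summed to 2753 to 14144 FPKM in WT, 360.0 to 1356 in Ctrl and 543.6 to 5562 in Arid1a_Het. In Ctrl against WT 3 of the 7 fell, where 3.04% of all tested genes did. The 9 general leukocyte markers summed to 25.8 to 42.2 FPKM in WT, 53.0 to 93.1 in Ctrl and 42.4 to 112 in Arid1a_Het. Of these 9, 2 rose in Ctrl, where 7.01% of all tested genes did. Leukocytes express many of the 42 genes, and the part of these cells in the differences was not tested.

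Lymphocyte markers were low throughout. The 11 genes of T and NK cells, the main producers of interferon gamma, summed to 0.999 to 3.18 FPKM in WT, 3.33 to 13.1 in Ctrl and 1.39 to 4.78 in Arid1a_Het. None of them was at 0 in every library, none reached the minimum for testing, and the highest value of any of them was 3.21 FPKM (Cd3g). Within Ctrl the sum was highest in Ctrl 1, at 13.1, the library with the lowest interferon gene level, and within Arid1a_Het it was 3.08 in Arid1a_Het 2, the library with the highest. Neutrophil markers summed to 1.31 to 3.43 FPKM in WT, 42.8 to 98.9 in Ctrl and 7.46 to 107 in Arid1a_Het. Of these, 4 of 5 tested rose in Ctrl, where 7.01% of all tested genes did. Macrophage and dendritic cell markers summed to 10.9 to 106 FPKM in WT, 36.5 to 56.2 in Ctrl and 13.3 to 132 in Arid1a_Het, and the mast cell markers to 20.8 to 57.9, 359.9 to 648 and 439 to 683 FPKM. Within Ctrl the general leukocyte, neutrophil, and macrophage and dendritic cell sums were highest in Ctrl 2, at 93.1, 98.9 and 56.2 FPKM. Ctrl 2 also had the highest interferon gene level of Ctrl. Its parietal cell sum, 1356 FPKM, and its sum of markers of chief cells, another gland cell type, 19044 FPKM, were the highest of Ctrl as well. The B and plasma cell sum was highest in Ctrl 1, at 7.08, and the mast cell sum in Ctrl 3. Within Arid1a_Het the sums of all these immune cell lists were highest in Arid1a_Het 3. The parietal and chief cell sums were highest in Arid1a_Het 2, at 5562 and 81655 FPKM, the library with the highest interferon gene level. Within WT both were highest in WT 2, while the interferon gene level was highest in WT 3. The sum of pit and neck mucous cell markers was highest in Ctrl 1 and Arid1a_Het 1, and the epithelial sum in Ctrl 3 and Arid1a_Het 3. The part of each of these in the interferon gene levels was not tested.

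**Figure D5:**
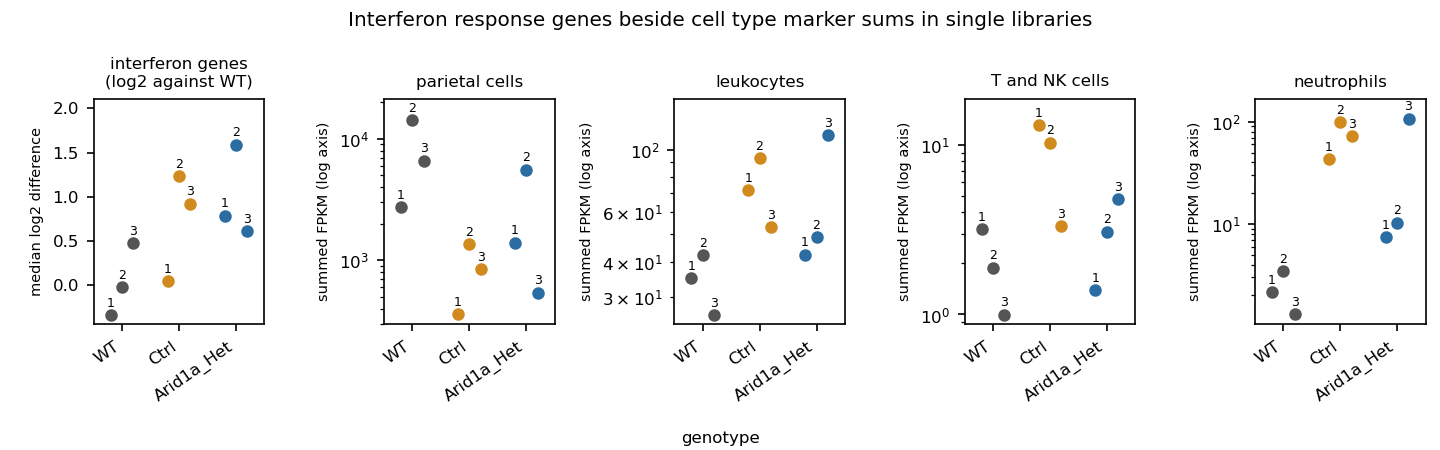
The median interferon gene level of each library (first panel, log2 difference from the WT mean) beside the summed FPKM of marker genes (other panels, log axes) by genotype (x axis), with replicate numbers at the points. Ctrl 1 has the lowest interferon gene level of Ctrl and the highest T and NK cell sum. Ctrl 2 has the highest interferon gene level, parietal cell sum, leukocyte sum and neutrophil sum of Ctrl. Arid1a_Het 2 has the highest interferon gene level and the highest parietal cell sum of its group, and Arid1a_Het 3 the highest sums in the other panels.

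Arid1a itself stood at 13.5, 7.79 and 12.0 FPKM in WT, 14.9, 13.3 and 16.2 in Ctrl and 8.94, 5.90 and 6.96 in Arid1a_Het. Each Arid1a_Het library was thus below each Ctrl library, which fixes the exact two-sided permutation p at 0.1, the smallest possible. Reads worked out from the FPKM values came to 22653249 to 29478481 a library over the genes of the table. A tested member had 6 to 9511 of these reads in a library. Of 9 exocrine pancreas markers, 8 were higher in both Ctrl 1 and Arid1a_Het 3 than in the other 7 libraries, and their sum was 3764 and 1426 FPKM against 79.9 to 325.9. The remaining marker, Clps (colipase), went the other way, at 1174 and 691 FPKM against 751 to 12647 in the others, and with it the sum over all 9 markers was highest in WT 2, at 12752. Without Ctrl 1 and Arid1a_Het 3, 4 members rose in Ctrl against WT (Irf1, Irgm1, Zbp1 and Parp14), none fell, and the median of the tested members was 1.13, while in Arid1a_Het against Ctrl the median was 0.20.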

How the data were processed

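The deposited table holds FPKM values, made by the authors, for 18423 genes in 9 libraries; per the labels' protocols the library kit keeps the strand of the mRNA. STAR 2.4.2a and the builds GRCm38 and mm10 are named in the submitters' processing notes; the counting tool, its strand setting and its treatment of reads with several matches are not given in the sources used here. Every FPKM value was a whole multiple of the worth of 1 read in its library (tolerance 0.01, 18423 of 18423 genes), so reads worked out in this way served for depth and for 1 alternative. On simulated data this gave the exact reads for 96.7% of genes.

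Groups were taken from the genotype labels. limma 3.58.1 in R 4.3.3 was fitted with an intensity trend to log2(FPKM + 1) of all 9 libraries and 3 group means, for the 11209 genes that reached an FPKM of 1 in 3 or more libraries; 7214 were left out. The scripts were tested on simulated data. Same-numbered WT and Ctrl libraries deviated together (correlations 0.207, 0.336 and 0.138, each above 0.1), a pairing taken from the data alone. The alternatives, 16 in all, were a pseudocount of 0.1, no filter, median-ratio scaling, only the 2 groups compared, the replicate block, voom on whole reads, leaving out Ctrl 1 and Arid1a_Het 3, and leaving out each library; the block with only WT and Ctrl in the fit was added after seeing the data.

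Members and lists were chosen with earlier results of these data known. A gene of the pathway lists is not reported here. Values in every library are given for members called in any comparison with or without the block, the 2 of lowest p in Ctrl against WT and the 1 of lowest p in Arid1a_Het against Ctrl in each class, the most abundant of each class, and the called or lowest-p genes of the other pathway lists, some of these by fold change only. Gene positions are from GENCODE M21 and promoters from RefSeq. Reads, motifs and plots were made in Python 3.11.15 (pandas 2.3.3, numpy 2.4.6, matplotlib 3.10.9).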

Additional observations from a re-analysis of the deposited data

How the results depend on the processing

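The count of members called higher in Ctrl against WT, 3, became 1 without a filter on low values, 1 with median-ratio scaling, 13 with the replicate block and 19 with the block and only WT and Ctrl in the fit, and ranged from 0 to 4 when each library was left out; it was 0 without Ctrl 2 or without Ctrl 3. The count called lower, 1 (Gbp2b), became 0 without a filter, with median-ratio scaling, with voom on whole reads and without Ctrl 1 and Arid1a_Het 3, and ranged from 0 to 1 over the libraries left out. The count called higher in Arid1a_Het against WT, 0, became 12 with the replicate block (3.97% of all tested genes) and 1 (Oasl2) without Ctrl 1 and Arid1a_Het 3, and ranged from 0 to 1 over the libraries left out, 1 (Psmb8) without Arid1a_Het 1. No member was called in Arid1a_Het against Ctrl under any of the 16 alternatives, the block and voom among them, and 1 had an unadjusted p under 0.05. For the comparisons with Arid1a_Het the replicate number was not taken as a pairing. Same-numbered libraries correlated at -0.15, 0.47 and -0.02 with Ctrl and at 0.25, 0.56 and -0.28 with WT, and only the second library correlated best with its own number. The values of that library, 0.47 and 0.56, were above the 0.207, 0.336 and 0.138 between WT and Ctrl. The value of Trim25 in Arid1a_Het against WT, 0.29, ranged from -0.011 (without WT 2) to 0.43 over the libraries left out. Over all genes, Ctrl against WT gave 786 higher calls (1804 with the block, 1911 with it and only WT and Ctrl, 217 to 1060 over the libraries left out) and 341 lower (587 with median-ratio scaling, 669 with the block, 698 with it and only WT and Ctrl, 166 without Ctrl 1 and Arid1a_Het 3, 43 to 405). Arid1a_Het against WT gave 231 higher (95 without a filter, 89 with only the 2 groups, 445 with the block, 98 without Ctrl 1 and Arid1a_Het 3, 80 to 528) and 77 lower (45, 16, 246 and 17 in the same order, 11 to 192). Arid1a_Het against Ctrl gave 1 lower (4 without a filter, 4 with only the 2 groups, 2 with the block, 21 without Ctrl 1 and Arid1a_Het 3, 0 with a pseudocount of 0.1 or with voom, 1 to 20 over the libraries left out) and 0 higher (1 with only the 2 groups, 0 to 2 over the libraries left out). The cause of these shifts was not tested. With 3 libraries a group, members without a call cannot be taken as unchanged.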
